A study of Dicentrarchus labrax with 16 samples.

Results

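Runs of neighbouring CpGs that were hyper-methylated in muscle, relative to testis of the same fish, were described in the European sea bass (Dicentrarchus labrax). CpG positions on the linkage groups were joined into a run when they lay up to 100 bp apart. A run of 5 to 14 CpGs was a member when its mean methylation was higher in muscle by 10 percentage points or more in each of the 3 fish and by 20 points or more on average. Of 20603 such runs, 349 (1.69%) met these limits. They held 2218 CpGs, spanned 41256 bp in all and lay on all 24 linkage groups. Under the same limits in the other direction, 891 runs (4.32%) were hyper-methylated in testis. The muscle and testis levels chose the runs, so these levels and their difference are given as a description, with no test.

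The fish were wild adults caught by speargun outside the reproductive season, and their tissues were taken on board and kept in RNAlater. They had no treatment, and their age is not given in the sources used here. Muscle and testis of the same 3 fish were measured by reduced representation bisulfite sequencing (RRBS), which gave 6 libraries, and library numbers 1 to 3 name the fish. RRBS cuts DNA with MspI at CCGG sites and treats the fragments with bisulfite, after which methylated cytosines are still read as C while the others are read as T.

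In vertebrates, CpG methylation is set by Dnmt3 enzymes, copied at replication by Dnmt1 and removed through the oxidation of methylcytosine by Tet enzymes. Most CpGs of a fish genome are methylated in every tissue, while CpG-rich promoters are mostly unmethylated. Bisulfite reads methylcytosine and hydroxymethylcytosine alike. Testis holds germ cells together with somatic cells such as Sertoli and Leydig cells, and muscle holds multinucleated fibres, satellite cells, vessels and connective tissue. In bulk DNA, a level between the extremes can come from a mixture of methylated and unmethylated cells or from partial methylation in every cell, and these cannot be told apart here. Genes and DNA sequence at the runs were not analysed here.

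The 6 libraries listed between 961700 and 1266961 CpG cytosines each, with mean coverage from 47.9 to 99.5 reads. Over the member CpGs, the median coverage was 58, 159 and 63 reads for muscle of fish 1, 2 and 3 and 87, 138 and 116 reads for testis. Raw coverage did not separate the tissues, with a mean of 93.3 ± 56.9 for muscle and 114 ± 25.6 for testis (SD, n = 3; exact permutation, two-sided, p = 0.6, adjusted p = 0.6 over 4 such tests). As a ratio to the library's median over the CpGs of all runs, it was 0.977 ± 0.0486 for muscle and 1.04 ± 0.0219 for testis. The ratio was higher in muscle in 0 of 3 fish (exact permutation, two-sided, p = 0.3, not adjusted). RRBS reads carry no molecular identifier, so a read need not stand for a separate molecule. Values of exactly 0 or 100% made up 31.8% ± 15.2 of the member CpGs in the muscle libraries and 0.736% ± 0.260 in the testis libraries (SD, n = 3). Nearly all of these were at 100% in muscle, which held 36.7%, 14.2% and 41.0% of the member CpGs in muscle 1, 2 and 3. These values also entered the run means that chose the members, so the share is given with no test. Over the CpGs of all 20603 runs, the muscle libraries had 31.9% to 52.7% and the testis libraries 20.3% to 24.8%. The part of these differences in the levels below was not tested.

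In testis the members sat at intermediate levels, and in muscle most of them were highly methylated. The median run level was 82.3%, 81.8% and 85.9% in muscle 1, 2 and 3. It was 45.6%, 48.4% and 54.0% in testis 1, 2 and 3. The middle 50% of the members lay between 73.3% and 90.1% in muscle, and between 39.9% and 60.5% in testis (means of 3 fish). Over all 20603 runs the median was 71.6% to 75.9% in the muscle libraries and 82.5% to 83.4% in the testis libraries. The median member therefore stood below the median run in testis and above it in muscle. The runs hyper-methylated in testis had medians of 52.8% in muscle and 88.8% in testis. An intermediate level in the lower tissue beside a high level in the other was thus not particular to the members. The median difference between muscle and testis was 33.4, 28.8 and 28.4 points in fish 1, 2 and 3, and 29.0 points for the mean of the fish. The difference was 30 points or more in 163 members, 40 points or more in 63 and 50 points or more in 13. In 180 members it was 20 points or more in every fish. In 339 of the 349 members the lowest muscle library lay above the highest testis library, which the limits favour. Over all runs this was so in 5.45%.

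**Figure D1:**
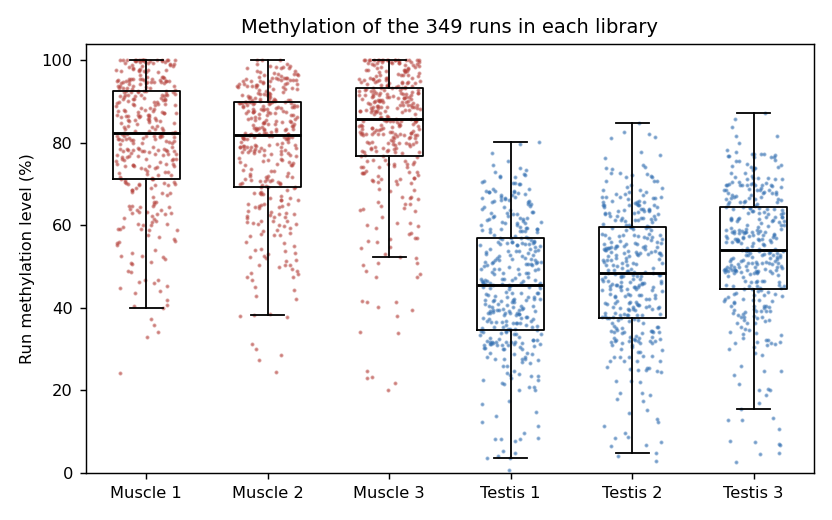
Methylation level (%) of each of the 349 runs (points) in the 6 libraries; boxes give the quartiles, the line the median, and whiskers reach up to 1.5 times the interquartile range. The muscle medians lie between 81.8% and 85.9% and the testis medians between 45.6% and 54.0%, with testis 3 the highest of the testis libraries.

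Most members were runs of intermediate testis methylation. Of the 793 runs with 40 to 60% methylation in testis, 169 (21.3%) were members. The share was 14.1% of the 517 runs at 20 to 40% and 5.35% of the 1720 runs at 60 to 80%. Of the 734 runs at 5 to 20%, 14 were members, and of the 5988 runs under 5%, 1 was a member. None was among the 10851 runs at 80% or more, where the mean limit leaves no room. At 60 to 80% this limit already leaves less room, so the share there is partly set by it. By level, the members fell into 3 classes. Class A, under 20% in testis, held 15 runs (4.30%). Class B, with 20% or more in testis and under 80% in muscle, held 129 (37.0%). Class C, with 20% or more in testis and 80% or more in muscle, held 205 (58.7%). No member combined under 20% in testis with 80% or more in muscle, and the highest muscle level in class A was 62.1%.

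**Figure D2:**
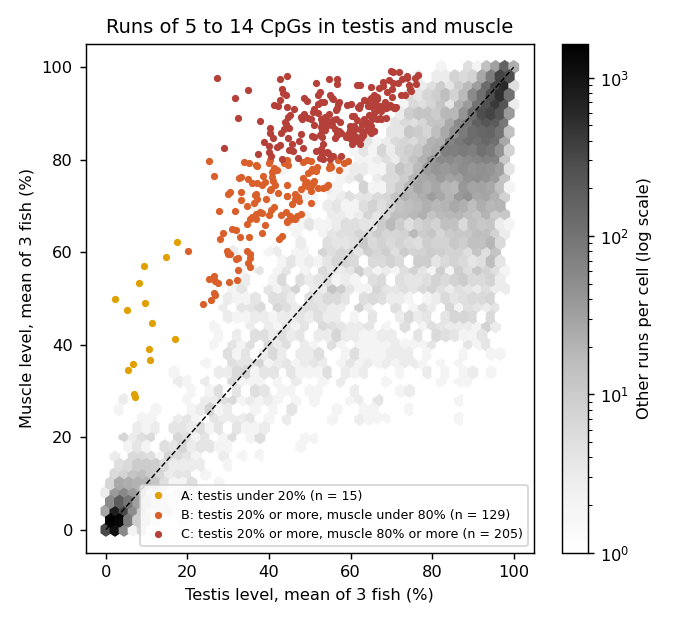
Mean methylation of runs of 5 to 14 CpGs in testis (x axis, %) and muscle (y axis, %), with members as coloured points by class and all other runs as grey cells on a log colour scale; the dashed line marks equal levels. Most members lie at 20 to 80% in testis, and the 15 class A runs stay at or below 62.1% in muscle.

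Class C runs were partly methylated in testis and highly methylated in muscle, with medians of 57.2% and 89.0%. The largest mean difference of all members was at LG10:9023289-9023410 (dicLab v1.0c, as for all positions below), a run of 5 CpGs with at least 39 reads per CpG and library. Its level was 99.1%, 93.9% and 100% in muscle 1, 2 and 3. It was 23.4%, 19.3% and 38.6% in testis 1, 2 and 3, which gave a mean difference of 70.5 points. The groups did not overlap at any of its 5 CpGs, whose differences ran from 61.8 to 74.9 points. The first 4 CpGs lie within 38 bp and were read 39 to 55 times each, at 97.8% to 100% in muscle and 15.4% to 47.1% in testis. At LG8:279430-279548 (5 CpGs) the muscle libraries had 86.8%, 93.2% and 100% and the testis libraries 24.0%, 29.3% and 41.8%. In both runs testis 3 was the highest testis library.

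In the remaining 4 class C runs named, the mean difference was between 53.7 and 60.1 points. LG24:5467938-5467995 (6 CpGs) was nearly even within each tissue, with 95.01% ± 4.41 for muscle and 34.9% ± 1.35 for testis (SD, n = 3 fish, as below). It rested on as few as 12 reads at a CpG. LG14:20022505-20022646 had 89.1% ± 4.43 against 32.4% ± 8.10, and LG14:13813363-13813424 had 97.5% ± 2.31 against 42.6% ± 2.92. LG13:16764053-16764120 had 98.1% ± 1.68 against 44.5% ± 13.1. The spread in its testis libraries came from testis 2, at 59.4%, beside 39.4% and 34.6% in testis 1 and 3.

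Class B runs were partly methylated in both tissues, with medians of 40.04% in testis and 72.1% in muscle. The largest difference in this class was at LG18-21:1886598-1886718 (5 CpGs), with 76.8%, 74.6% and 87.9% in muscle 1, 2 and 3. The testis libraries had 22.6%, 19.4% and 34.0%. The differences of the fish lay close together at 54.2, 55.2 and 53.9 points. At LG5:17710078-17710166 (5 CpGs) the muscle libraries had 86.7%, 58.1% and 84.5% and the testis libraries 21.8%, 34.3% and 23.7%. Fish 2 was lowest in muscle and highest in testis there, so its difference was 23.8 points against 64.9 and 60.8 points in fish 1 and 3.

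In the other 4 class B runs named, each muscle library lay above each testis library. LG18-21:5239138-5239295 had 79.5% ± 7.34 for muscle against 33.8% ± 6.22 for testis. LG24:9030252-9030462 had 79.4% ± 3.18 against 35.2% ± 4.797, and all of its 6 CpGs were higher in muscle in every fish. LG13:3375201-3375319 had 76.0% ± 8.46 against 32.6% ± 8.76, with 3 of 5 CpGs higher in every fish. LG9:1666337-1666497 had 76.3% ± 11.1 against 33.0% ± 6.60, with 8 of 9 CpGs higher in every fish.

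Class A runs were under 20% in testis and partly methylated in muscle, with medians of 9.23% and 44.6%. At LG13:6729581-6729681 (6 CpGs) the muscle libraries had 73.1%, 58.8% and 39.4% and the testis libraries 9.70%, 13.1% and 4.88%. At LG22-25:12055895-12056031 (5 CpGs) the muscle libraries had 62.9%, 66.6% and 20.1% and the testis libraries 0.805%, 2.99% and 2.73%. At LG24:7931230-7931346 (6 CpGs) muscle 1, 2 and 3 had 70.0%, 50.5% and 21.7%, and testis had 5.19% ± 1.42. Muscle 3 was the lowest muscle library in all 3 runs. In LG12:17412490-17412573 muscle 3 was instead the highest, with 40.8%, 48.9% and 70.1% in muscle 1, 2 and 3 and 8.21% ± 4.48 in testis. LG14:24375241-24375335 had 62.1% ± 11.3 for muscle against 17.3% ± 3.31 for testis, and LG8:22209674-22209845 had 59.0% ± 2.67 against 14.7% ± 6.57. The testis libraries stayed at or below 21.4% in all 6 of these runs, while the muscle libraries ranged from 20.1% to 75.02%.

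**Figure D3:**
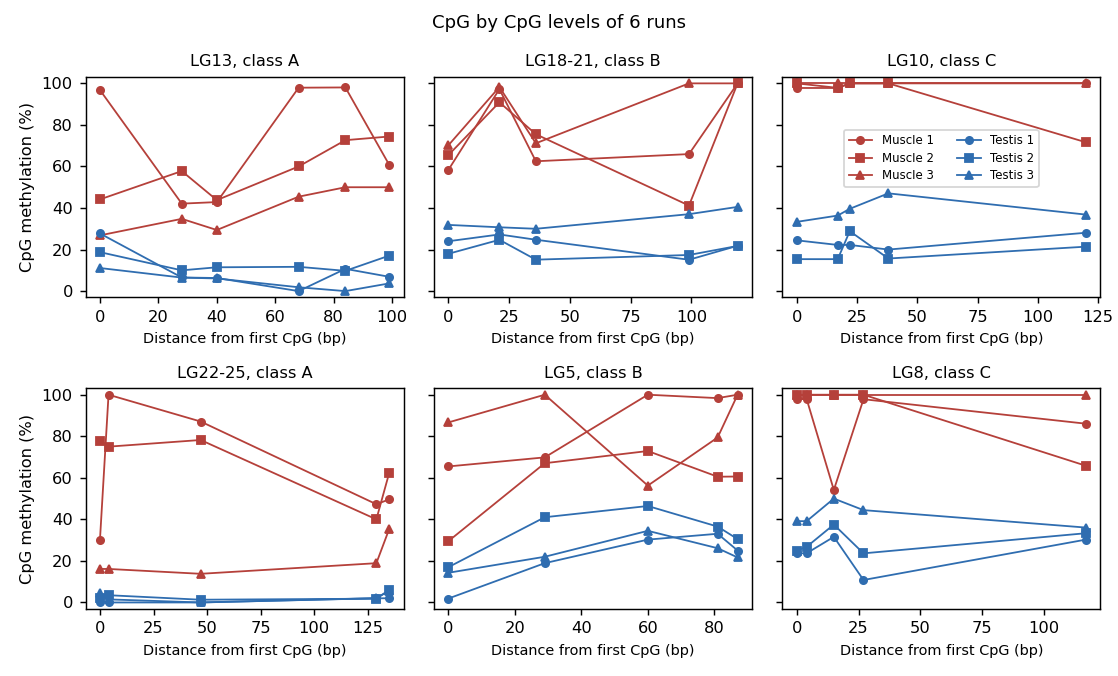
Methylation (%) of each CpG, by distance from the first CpG of the run (bp), in the 6 libraries of the 2 members with the largest mean difference in each class. Muscle lies above testis at every CpG on average, and single muscle libraries jump between neighbouring CpGs, as muscle 1 does on LG22-25 from 30.3% to 100% over 4 bp.

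The members with the largest difference in their weakest fish were the first 3 class C runs above, at 61.4, 58.2 and 57.4 points, and the first class B run, at 53.9 points. The member with the most CpGs was LG16:519207-519415. All 13 of its CpGs were higher in muscle in every fish, with levels of 97.6%, 89.9% and 98.1% in muscle and 38.7%, 38.2% and 52.4% in testis. Another 6 members had 12 CpGs each, with mean differences from 20.7 to 35.6 points. The first of these by linkage group name, LG11:11498643-11498818, had 7 CpGs that were higher in muscle in every fish, and 73.3% ± 10.02 against 50.3% ± 7.45. The longest member, LG9:10366298-10366670, had 10 CpGs over 373 bp, all higher in muscle in every fish, and 74.98% ± 12.9 against 35.9% ± 3.81. LG16:7368697-7369042 spanned 346 bp and had 80.1% ± 11.2 against 53.2% ± 7.02.

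The limits cut through a continuous range. Just inside the mean limit were LG8:4061694-4061780 and LG14:1422089-1422203, each with a mean difference of 20.1 points. Just outside were LG10:18321689-18321786, at 19.99 points, and LG1B:2473546-2473656, at 19.8 points. At the limit per fish, LG1A:9691031-9691145 and LG9:14971660-14971788 passed with 10.1 points in their weakest fish. LG2:13787186-13787310 and LG19:11068883-11068985 did not, with 9.92 and 9.64 points.

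A fish that had no part in the choice showed whether the difference held beyond the fish that chose the runs. Runs were chosen with the same limits on 2 fish, and the difference was read in the remaining fish. With fish 1 held out, 407 runs were chosen, and their median difference in fish 1 was 27.8 points. With fish 2 held out it was 23.9 points over 419 runs, and with fish 3 held out 23.8 points over 420 runs. In the fish that chose them, the medians were 28.3, 29.5 and 30.4 points. The difference was 10 points or more in the held-out fish in 322, 343 and 330 runs, or 79.1%, 81.9% and 78.6%. Over all 20603 runs, the share at 10 points or more was 6.21%, 5.13% and 6.98% in fish 1, 2 and 3. All runs are not matched to the chosen runs by level, here and below, and 10851 of them lay at 80% or more in testis. Over the 3030 runs at 20 to 80% in testis, the upper quartile of the mean difference of the 3 fish was 10.1 points. The held-out difference was above 0 in 87.2%, 91.4% and 87.9% of the chosen runs, against 35.1%, 32.6% and 38% of all runs. The mean level of the chosen runs was 72.5% ± 1.52 in held-out muscle, against 48.9% ± 3.51 in held-out testis (SD, n = 3). Each fish was read over its own set of chosen runs and also helped to choose the runs of the other fish. The library values are therefore not independent. Their SD and the p-values below do not measure the spread between fish alone. Muscle was higher in 3 of 3 fish, by 25.4, 24.2 and 21.5 points (exact permutation, two-sided, p = 0.1, the smallest that 3 against 3 libraries allow, adjusted p = 0.133). With labels exchanged within fish, which keeps the pairing, the exact permutation p was 0.25, the smallest that 3 pairs allow.

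**Figure D4:**
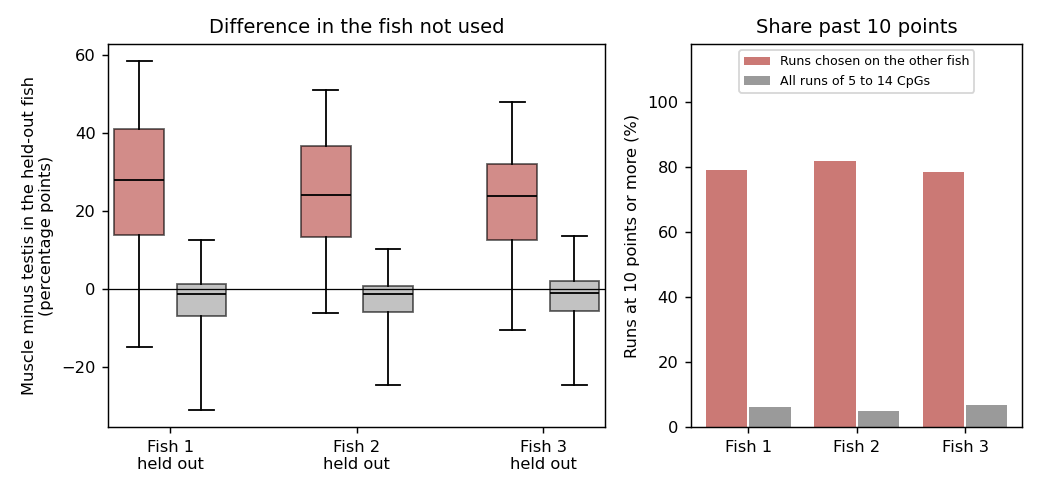
Left, muscle minus testis (percentage points) in the fish not used to choose the runs, for runs chosen on the other fish (coloured boxes) and for all runs of 5 to 14 CpGs (grey), with boxes at the quartiles, the median as a line and whiskers at the 5th and 95th percentiles. Right, the share of these runs (%) at 10 points or more in that fish. It was 78.6% to 81.9% of the chosen runs and 5.13% to 6.98% of all runs, which are not matched to them by level.

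For runs hyper-methylated in testis, chosen in the same way, the share at 10 points or more in the held-out fish was 81.8%, 78.3% and 65.6%, against 19.9%, 16.8% and 16.5% of all runs. The share that held also went with the level in the fish that chose the runs. Of the runs that were class C in the choosing fish, 85.1%, 86.2% and 83.1% were at 10 points or more in held-out fish 1, 2 and 3. For class B the shares were 70.5%, 77.3% and 78.7%. For class A they were 14 of 20, 16 of 25 and 16 of 34 runs. In fish 3 the median held-out difference of class A runs was 9.54 points, against 35.1 points in fish 1. The difference between classes was not tested.

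Most CpGs of the members had the direction of their run, which the limits favour. Of the 2218 member CpGs, 2152 (97.0%) had a mean difference above 0, and 1761 (79.4%) were higher in muscle in all 3 fish, against 9.58% of the 147857 CpGs of all runs. In 292 members every CpG was higher in muscle on average, and in 105 every CpG was higher in every fish. In 11 members a CpG was lower in muscle by 10 points or more on average. The first and last CpGs of the runs differed by 29.3 points on average (698 CpGs) and the inner CpGs by 32.3 points (1520 CpGs). Testis was at 50.7% at the ends and 47.8% inside, and muscle at 79.98% and 80.1%. Within a run the CpGs varied more in muscle, where the median SD over the CpGs of a run was 17.0, 12.5 and 15.5 points in libraries 1, 2 and 3, against 9.58 to 10.8 points in testis. Over all runs it was 7.002 to 9.76 points in the muscle and 3.85 to 4.28 points in the testis libraries.

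Most member CpGs (1943) were read on 1 strand, and 275 CpGs in 155 members were read on both. At these the forward cytosine differed by 30.7, 28.6 and 28.6 points in fish 1, 2 and 3, and the reverse cytosine by 35.8, 27.1 and 27.6 points. Both cytosines entered the run means that chose the members, so these values are a description. Over the 18868 CpGs of all runs read on both strands, the mean difference was -3.15 points on the forward and -3.09 points on the reverse strand. Inside the members, 454 further cytosines in 250 runs failed the coverage limits in at least 1 library. Only the 54 of them with at least 5 reads in every library, in 31 runs, are described here. They did not enter the run means, but lie among the CpGs that did and were read in the same libraries. The choice therefore favours the same direction in them. Their mean level was 83.8%, 82.1% and 82.7% in muscle and 51.0%, 52.2% and 60.6% in testis. Muscle was higher at 50 of the 54, where muscle 1 had a median of only 7 reads.

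Beside the runs the difference was smaller, and beyond 500 bp it was near 0 or below. CpGs outside a member did not enter the run means, but they were read in the libraries and fish that chose the members. The choice can therefore favour the same direction in them. They were available beyond 100 and up to 1000 bp from the edge of 132 members (546 CpGs). Their mean level was 72.5% ± 2.63 for muscle and 64.0% ± 1.22 for testis (SD, n = 3). Muscle was higher in 3 of 3 fish, by 9.88, 5.84 and 9.85 points (exact permutation, two-sided, p = 0.1, the smallest that 3 against 3 libraries allow, adjusted p = 0.133). Exchange within fish gave an exact permutation p of 0.25 here as well. Since the choice can favour this direction, these p-values cannot show whether the tissues differ beside the runs apart from the choice. Around all runs the difference over this distance was -2.65 points. Near the members it was 11.3 points up to 500 bp (97 members), 0.753 points from there to 1000 bp (61 members) and -1.25 points from there to 2000 bp (102 members). Around all runs it was -2.64, -2.58 and -3.46 points over the same distances. Between 2000 and 5000 bp the difference beside members was -3.48 points (205 members), against -3.76 points around all runs. The flanking CpGs up to 500 bp away were higher in muscle beside 71 of 97 members (73.2%), against 35.2% of all runs. Between 2000 and 5000 bp they were higher beside 64 of 205 (31.2%), against 31.8% of all runs. With CpGs joined up to 200 bp apart, which moves the nearest CpGs into the runs, the difference up to 1000 bp was 4.89 points.

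**Figure D5:**
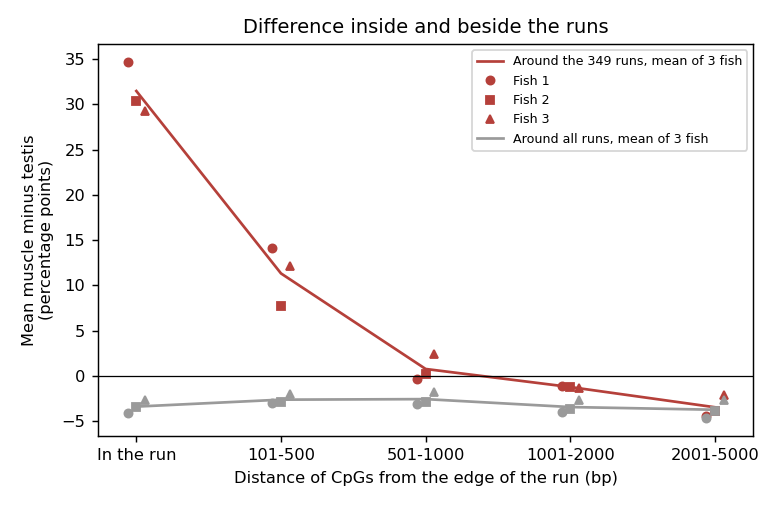
Mean muscle minus testis (percentage points) inside the runs and at CpGs beside them, by distance from the run's edge (bp), for the 349 runs (coloured) and all runs of 5 to 14 CpGs (grey); symbols are the 3 fish and lines their mean. Beside the members the difference is 11.3 points up to 500 bp and reaches -3.48 points between 2000 and 5000 bp, near the -3.76 points around all runs.

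In 335 of the 349 members no other member lay within 10 kb, and the remaining 14 formed 7 pairs. Members were 1.69% of all runs, and their nearest run of 5 to 14 CpGs lay a median of 7922 bp away. Whether members lay closer together or farther apart than this share gives was not tested. LG10:9022956-9023155 lay 133 bp before the run with the largest difference, and had 68.8% ± 10.2 against 27.6% ± 3.68. On LG17, the members LG17:16964971-16965068 and LG17:16966974-16967238 lay 1905 bp apart. The former had 86.8% ± 8.62 for muscle against 40.2% ± 11.9 for testis, and the latter 66.1% ± 10.6 against 34.5% ± 3.42. Of 28 members whose nearest run of 5 to 14 CpGs lay within 1 kb, 4 had another member there, while 1.69% of all runs were members. These 4 make up 2 of the pairs. Of the other 24 nearest runs, 14 (58.3%) were higher in muscle on average, against 30.5% of all runs, with a median difference of 0.477 points. Among these 24, 1 met the limits toward testis, which 4.32% of all runs did. That one, LG24:9031398-9031507, lies 935 bp from the class B member at LG24:9030252-9030462. It had 74.4%, 72.5% and 54.8% in muscle 1, 2 and 3, below the 94.8%, 92.6% and 94.2% of testis 1, 2 and 3. The direction thus differed between these runs within 1 kb. That it did so in all 3 fish was fixed by the limits that chose them.

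At the members, the libraries of each tissue differed between fish. Each fish had 1 library per tissue, so this spread also holds that of the library and its reads. The limits apply in every fish and can affect the spread too. The median SD between the 3 fish was 7.25 points in muscle and 6.57 points in testis. Over all runs it was 3.897 and 1.36 points, over the 3030 runs at 20 to 80% in testis 10.5 and 5.19 points, and at the runs hyper-methylated in testis 11.5 and 2.56 points. Testis 3 was the highest testis library in 228 members (65.3%), against 49.97% of the runs at 20 to 80% in testis and 37.3% of all runs. Testis 1 was the lowest in 193 members (55.3%), against 41.6% and 34.0%. Across the 349 members, Pearson's correlation between libraries was 0.821 to 0.847 for pairs of testis libraries and 0.552 to 0.686 for pairs of muscle libraries. Between tissues it was 0.656, 0.682 and 0.757 within fish 1, 2 and 3. For each muscle library this was higher than with the testis of either other fish, where it ran from 0.600 to 0.673. These are descriptions across runs of the same 6 libraries, over the range of levels that the limits leave. The limits apply to differences within each fish, so they can favour the pairs of the same fish.

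Members more often had few and widely spaced CpGs than other runs. Their median was 4.60 CpG steps per 100 bp over a span of 114 bp, against 5.80 steps and 106 bp over all runs. Runs hyper-methylated in testis had a median of 4.90 steps per 100 bp, and the 3030 runs at 20 to 80% in testis had 5 steps. Of the runs with 5 CpGs 2.45% were members, and of those with 10 to 14 CpGs 0.813%. The median testis level of these runs was 86.0% and 22.5%. Counting only runs at 20 to 80% in testis, the shares lay closer, at 12.5% and 8.31%. With all runs split into 4 equal parts by CpG spacing, the share was 2.69%, 1.94%, 1.37% and 0.766% from the sparsest to the densest. Among runs at 20 to 80% in testis, the shares were 12.5%, 11.7%, 11.3% and 6.95% in the same order, so the sparser 3 parts then lay close together.

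The limits were also met outside runs of this size. Of 24529 single CpGs 4.06% met them toward muscle and 6.11% toward testis, and of 42929 runs of 2 to 4 CpGs 3.15% and 5.6%. Of 1833 runs of 15 or more CpGs, 0.327% met them toward muscle and 0.436% toward testis. On unplaced sequence 0.471% of 7011 runs of 5 to 14 CpGs met them toward muscle.

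Each linkage group held members, from 5 of 808 runs (0.619%) on LG15 to 16 of 570 (2.81%) on LG18-21. LG11 held the most, 24 of 882 runs (2.72%). On every linkage group the runs hyper-methylated in testis outnumbered them, most narrowly on LG11, with 26. Of the members 11.7% lay within 1 Mb of the first or last listed cytosine of their linkage group, against 12.9% of all runs. Of the 15 class A runs 33.3% did. This share rests on few runs, and 3 of the 15 lie together on LG8 within 17391 bp. It was not tested.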

How the data were processed

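RRBS libraries of muscle and testis of 3 fish were used, grouped by the sample titles. The authors trimmed reads with Trimmomatic, aligned them with BSMAP 2.90 to dicLab v1.0c and called methylation with its methratio script. For each cytosine on each strand, the authors deposited a count of reads covering it (the coverage) and the percent of these reads with C and with T. The deposited expression tables hold 1 value per gene and tissue or the authors' own fold changes and p-values. They give no positions and were not used.

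Cytosines were kept (528301) when every library had 10 or more reads and no more than its own 99.9th percentile of coverage (626 to 1385 reads). Strands were summed, which gave 475516 CpGs, 329245 of them on linkage groups. A run's level is the mean over its CpGs. Libraries with one number came from the same wild fish, as the file labels number them. Their deviations from the tissue mean over runs had correlations of 0.217, 0.287 and 0.253, against -0.155 to -0.0877 between fish. Deviations from a mean of 3 fish sum to 0, so positive values within fish bring negative ones between fish. The negative values are therefore no separate evidence for the pairing. Tests were two-sided exact permutations over the 6 libraries with Benjamini-Hochberg adjustment over 4 tests. The fourth, on the share of values at 0 or 100%, is not used, since these values entered the choice of members. Its p was kept in the adjustment, and the adjusted p of the held-out and flank tests would be higher without it. Permutation with exchange within fish was an alternative. The coverage ratio was tested outside these 4, without adjustment. The p-values rest on these 3 fish alone, and those of the held-out and flank differences also carry the choice of runs.

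The members, classes and lists were chosen with earlier results of these data known. Regions named are the 6 with the largest mean difference in each class, the 4 with the largest difference in the weakest fish, the 2 with most CpGs, the 2 longest, 2 groups within 10 kb and those at the limits, with ties taken by linkage group name, then start. The alternatives were other coverage limits, joining distances, single strands, pooled reads, other limits and each fish left out. The steps were tested on simulated data. The tools were Python 3.11.15 with scipy 1.17.1, pandas 2.3.3, numpy 2.4.6 and matplotlib 3.10.9.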

Additional observations from a re-analysis of the deposited data

Results flagged for a closer look

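Some runs outside the 349 also met the limits, which fix their direction. In the sets of runs below, the share toward muscle was smaller than the 1.69% of runs of 5 to 14 CpGs on linkage groups. On unplaced sequence, 33 of 7011 runs of 5 to 14 CpGs (0.471%) met the same limits toward muscle, with a median of 79.9% in muscle and 48.7% in testis, and 95 (1.36%) met them toward testis. Among 1833 runs of 15 or more CpGs, 6 (0.327%) met the limits toward muscle and 8 (0.436%) toward testis. The 54 cytosines that failed the coverage limits but had at least 5 reads in every library lie inside members, in the libraries that chose them. Their mean difference was 28.3 points.

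Levels of 3 of the 6 longer runs, chosen after their values were seen, follow as a description, since the limits fix their direction. On LG7, the run from 11639101 to 11639532 (15 CpGs) had 90.1%, 91.0% and 96.7% in muscle 1, 2 and 3 and 43.0%, 46.2% and 51.9% in testis. On LG11, the run from 18070203 to 18070423 (17 CpGs) had 47.0%, 40.5% and 46.4% in muscle and 4.07%, 6.59% and 7.91% in testis. The run with most CpGs, 28 on LG15 from 17696726 to 17697206, had 66.6%, 78.2% and 84.9% in muscle and 51.0%, 58.0% and 54.6% in testis.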

How the results depend on the processing

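Of 73 values under alternative settings, 68 stayed within the spread or the side of the threshold of the reported value, 5 moved and 0 reversed. The counts of runs and their median differences could not reverse, since the limits fix the direction. Exchange within fish leaves every difference unchanged. The 73 also hold 9 values of the share at 0 or 100%, which is given with no test. Read on the forward or reverse strand alone, 86 and 94 runs met the limits, of 9388 and 9535 runs (0.916% and 0.986%). The cause was not tested. The median difference was 32.6 points on the forward strand, 33.9 points with a mean limit of 25 points and 32.3 points with 15 points required in every fish. Under the other settings with all 3 fish, 240 to 425 runs met the limits. With each fish left out in turn, 407 to 420 runs met them, with a median difference of 28.3 to 30.4 points. For the other results the runs were not chosen again, and each value is the mean over the fish that remained. The held-out difference was 22.8 to 24.8 points and the flank difference 7.85 to 9.87 points. The coverage difference was -41 to -4 reads. The difference in the share of values at 0 or 100%, given with no test, was 25.5 to 39.7 points. With labels exchanged within fish (the pairing as a block), the differences are the same by construction. They are 23.7 points (held-out fish), 8.53 points (flanks) and -20.3 reads of coverage. The exact permutation p was 0.25, 0.25 and 0.5, where 0.25 is the smallest that 3 pairs allow. The limits given above for the held-out and flank p-values hold here too. Muscle 1 and 3, with median coverage of 58 and 63 reads at members, limit the precision of the muscle levels.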

Other observations

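The observations below were chosen after the values were seen and were not tested. In 62 runs chosen on 2 fish, the held-out fish differed by 10 points or more in the other direction, 29 (7.13%) with fish 1 held out, 11 (2.63%) with fish 2 and 22 (5.24%) with fish 3. Over all runs, testis was higher by 10 points or more in 19.9%, 16.8% and 16.5%. In the 29 runs of fish 1, the median was 16.5% in its muscle and 43.1% in its testis, while the other fish had 76.3% in muscle and 47.6% in testis. In the 22 runs of fish 3, it was 32.2% in muscle and 53.7% in testis, against 77.2% and 45.2% in the other fish. The muscle levels of the fish lay farther apart than the testis levels in these runs.

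Of the 15 class A members, 3 lay on LG8 within 17391 bp. The runs from 22192455 to 22192627 (10 CpGs), from 22207874 to 22207991 (5 CpGs) and from 22209674 to 22209845 (8 CpGs) had 36.7% ± 5.23, 35.8% ± 10.5 and 59.0% ± 2.67 in muscle and 10.8% ± 2.32, 6.63% ± 2.78 and 14.7% ± 6.57 in testis (SD, n = 3). On LG15, the class A member from 24898241 to 24898364 (11 CpGs), with 39.0% ± 12.7 in muscle and 10.5% ± 4.47 in testis, lay 10298 bp from a run of 15 CpGs (24887743 to 24887942) with 43.2% in muscle and 5.05% in testis.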
